A study of Mus musculus with 6 samples.

Results

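MHC class I molecules were followed here through 10 genes: the classical heavy chains H2-K1 and H2-D1, the nonclassical heavy chains H2-Q4, H2-Q6, H2-Q7, H2-T22, H2-T23 and H2-M3, the light chain B2m, and Nlrc5, the transactivator of class I genes. The genes were chosen by name, with earlier results of these data known, so counts of calls among them are descriptions. All 10 were found among the 57010 gene identifiers of the table, and all 10 were among the 14575 genes abundant enough to be tested. RNA came from mouse heart cells sorted as CD45+ (a marker of all leukocytes) and CD90.2-, which leaves out T cells, the main carriers of CD90.2 (Thy1). Every mouse carried the genotype given as Ova DTG, with ovalbumin expression restricted to the heart, and every mouse received naive OTI cells, transgenic CD8 T cells specific for ovalbumin. The 3 libraries labelled ICI (immune checkpoint inhibitors) came from mice given 200 µg anti-CTLA-4 (clone 9D9) together with 200 µg anti-PD-1 antibody, and the 3 libraries labelled isotype came from mice given the isotype control. Titles of both groups name myocarditis, so the isotype libraries cannot be taken as healthy hearts. No measurement here checks which libraries received which antibody: class I genes were lower and resident macrophage markers far higher in the libraries labelled ICI, every direction below rests on the labels, and an exchange of the 2 labels would reverse all of them. The sources used here do not give age, strain, the promoter of the ovalbumin transgene or the number of hearts behind a library.

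A class I molecule is a heavy chain that spans the membrane, paired with the invariant light chain beta-2-microglobulin and loaded with a short peptide. H2-K1 and H2-D1 encode the polymorphic chains that present peptides to CD8 T cells; OTI cells see their ovalbumin peptide on the H2-K molecule of the b haplotype. The Q, T and M genes encode less polymorphic chains with narrower partners: H2-Q6 and H2-Q7 belong to the Qa-2 group, H2-T23 encodes Qa-1, the ligand of the CD94/NKG2 receptors, the H2-T22 product is seen by some gamma-delta T cells, and H2-M3 presents peptides with a formylated start. Class I genes are induced by interferon gamma, in part through IRF1, and NLRC5 drives them from a promoter element, the SXY module, that RFX, CREB/ATF and NF-Y proteins occupy.

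Total counts ran from 21528274 to 30736316 per library, and from 19160 to 21600 genes had a count. Ptprc, which encodes CD45, was at 1300 ± 107 CPM (counts scaled to a common library total; mean ± SD, n = 3 libraries) in ICI and 1012 ± 58.8 CPM in isotype, and Thy1 had at most 2 counts in any library. The whole table differed widely: the edgeR quasi-likelihood test called 4938 genes lower in ICI, or 33.9% of the genes tested, and 5102 higher, or 35.0%, at an adjusted p under 0.05. With library totals in place of TMM factors these counts were 3724 and 6255, and with upper-quartile factors 3849 and 6155. Marker genes of several cell types differed between the groups as well. The summed level of 6 resident macrophage markers (Lyve1, Cd163, Timd4, Folr2, Fcna and Vsig4) was 2389 to 2669 CPM in ICI and 9.75 to 17.96 CPM in isotype, and all 6 were called higher. Of 6 monocyte markers 5 (Plac8, Chil3, Ly6c2, Ccr2 and Vcan) were called lower and 1, F13a1, higher. Their sums overlapped, at 4791 to 5638 CPM in ICI and 4080 to 8501 CPM in isotype. That overlap rests on F13a1, which was at 4397 ± 477 CPM in ICI and 197 ± 49.3 CPM in isotype and made up most of the ICI sums. The 6 B cell markers were all called higher, with sums of 833 to 1643 CPM against 53.5 to 96.4 CPM. In bulk RNA, fewer cells of a type and less RNA per cell cannot be told apart, and the part that these differences in cell make-up have in the results below was not tested. Replicate 3 of each group had more Xist counts (2786 and 1844) than counts of Y-linked genes (6 and 130), and the other 4 libraries had at least 3620 Y-linked counts. Both groups therefore held 1 such library.

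All 10 class I genes were lower in ICI, with fitted falls from 1.27-fold to 4.30-fold. Fitted values use TMM scaling, so they are not the ratios of the CPM means, which are on library totals. H2-T22 had the largest, followed by H2-Q7 at 2.23-fold and H2-T23 at 2.15-fold. Nlrc5, B2m, H2-Q4 and H2-K1 fell between 1.72-fold and 1.99-fold, H2-Q6 fell 1.61-fold, and H2-M3 and H2-D1 fell by 1.31-fold and 1.27-fold. The edgeR test called 10 of the 10 lower, where 33.9% of all tested genes were called lower, and 5 of the 10 (H2-T22, H2-Q7, H2-T23, H2-Q4 and B2m) were lower by more than 1.5-fold in edgeR's test against that change, which 16.5% of tested genes also were. After TMM scaling, which corrects library totals for composition, the highest ICI library was below the lowest isotype library for all 10, as for 36.3% of tested genes. The edgeR test called 6 of the 10 without ICI replicate 1, isotype replicate 1 or isotype replicate 2, and 7 with replicates 1 and 2 of each group alone. In the same fits, in that order, 4648, 4500, 4675 and 4528 of all tested genes were called lower. On library totals the ICI libraries were all below the isotype libraries for 7, as for 28.2% of tested genes, and H2-D1, H2-Q6 and H2-M3 overlapped. The median log2 fold change was -0.91 over the 10 genes and 0.03 over all tested genes, whose middle 50% lay between -0.57 and 0.79. H2-D1 and H2-M3 lay inside that middle range and the other 8 below it.

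**Figure D1:**
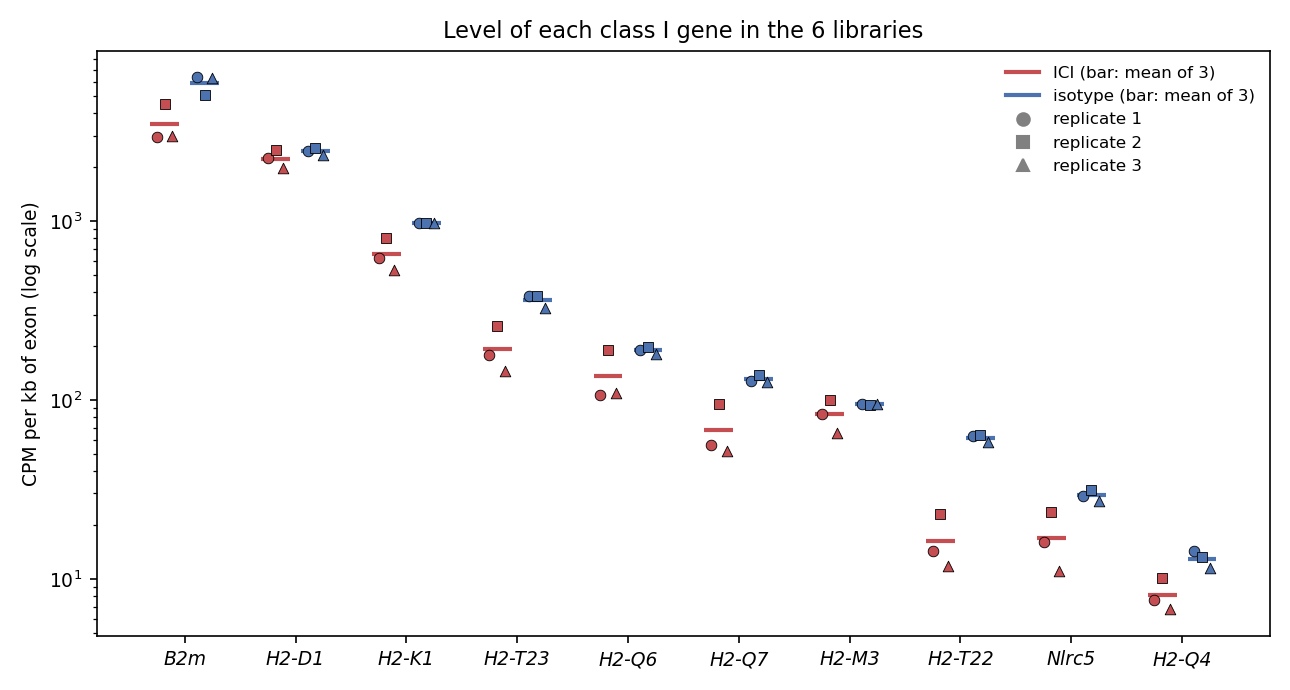
Level of each class I gene in each of the 6 libraries, in CPM per kb of exon on a log scale, with the mean of each group as a bar and the replicate number as the marker shape. The ICI points lie below all isotype points for 7 genes and overlap them for H2-D1, H2-Q6 and H2-M3, and ICI replicate 2 is the highest ICI library for every gene.

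The promoters of these genes are shown because the class I genes carry a shared arrangement of sites that NLRC5 and its partners are known to use, and because the genes moved in 1 direction by graded amounts. RefSeq promoter entries (250 bases before to 50 after the first start site listed per gene, mouse build GRCm38.p6, which is older than the GRCm39 of the counts) existed for 9 of the 10; Nlrc5 had none. Capitals mark matches, on either strand, to 4 motifs whose letters were chosen after the promoters had been read: a kappaB-like motif GGGATTNCC, an interferon response (ISRE-like) motif TTTCNNTT, an X2-like motif TGNTGAC and the Y-box ATTGG, which reads CCAAT on the other strand. No match of one motif overlapped another in these windows. H2-K1 and H2-D1 show the classical arrangement, and H2-Q7 the Qa-2 one. H2-M3 and B2m show the arrangement without a match to these kappaB-like letters. Other forms of a kappaB site were not searched, so gggaaagtccc in the B2m window is not marked. H2-T22 and H2-T23 are the pair without the module, by the spacing given below.
H2-K1: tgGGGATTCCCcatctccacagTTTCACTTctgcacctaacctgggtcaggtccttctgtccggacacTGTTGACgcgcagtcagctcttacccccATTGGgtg
H2-D1: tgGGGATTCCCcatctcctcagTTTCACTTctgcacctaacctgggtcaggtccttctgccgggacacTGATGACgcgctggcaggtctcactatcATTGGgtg
H2-Q7: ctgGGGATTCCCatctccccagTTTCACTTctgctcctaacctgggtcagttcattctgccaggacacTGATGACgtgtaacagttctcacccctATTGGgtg
H2-M3: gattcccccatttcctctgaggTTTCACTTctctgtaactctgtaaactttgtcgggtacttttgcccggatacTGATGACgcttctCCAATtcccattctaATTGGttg
B2m: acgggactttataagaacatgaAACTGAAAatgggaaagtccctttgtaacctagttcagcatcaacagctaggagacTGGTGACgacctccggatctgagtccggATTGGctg
H2-T22: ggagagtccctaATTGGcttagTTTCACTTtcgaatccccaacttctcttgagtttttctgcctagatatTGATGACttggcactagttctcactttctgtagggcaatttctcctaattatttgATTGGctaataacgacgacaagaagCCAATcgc
H2-T23: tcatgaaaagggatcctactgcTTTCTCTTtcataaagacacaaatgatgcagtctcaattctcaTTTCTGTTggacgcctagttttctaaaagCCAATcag
The windows lie at chr17:34000356-34000459 (minus strand) for H2-K1, chr17:35262922-35263025 (plus strand) for H2-D1, chr17:35439020-35439122 (plus strand) for H2-Q7, chr17:37270111-37270220 (plus strand) for H2-M3, chr2:122147528-122147641 (plus strand) for B2m, chr17:36042798-36042955 (minus strand) for H2-T22 and chr17:36032746-36032847 (minus strand) for H2-T23, each printed 5′ to 3′ along its gene.

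An X2-like motif followed on the same strand by a Y-box 24 to 32 bases further on was present in 7 of the 9 promoters (H2-K1, H2-D1, H2-Q4, H2-Q6, H2-Q7, H2-M3 and B2m), where 58 of 27025 mouse promoters of the same length, or 0.215%, had it. The motif letters were chosen after these promoters had been read, and the 24 to 32 bases bracket the distances found in them. The difference from the share over all promoters is thus a description and not a test, and the 58 include the 7. The distance between the starts of the motifs was 28 bases in H2-K1, H2-D1, H2-Q4, H2-M3 and B2m and 27 bases in H2-Q6 and H2-Q7. H2-T22 had an X2-like match at position -143 and a Y-box at position -88, counted from the start site, which is outside that spacing. In H2-T23 the X2-like match, at position -19, and the Y-box, at position -52, were both on the reverse strand. The Y-box follows the X2-like match on that strand too, but slightly further on than the limit of 32 bases. The kappaB-like motif was present in H2-K1, H2-D1, H2-Q4, H2-Q6 and H2-Q7 and in 0.984% of all promoters, whereas the ISRE-like motif, present in all 9, was found in 24.2% of all promoters, the X2-like motif in 14.2% and the Y-box in 37.9%. H2-K1 and H2-D1, with fitted falls of 1.72-fold and 1.27-fold, had the same 4 motifs in the same order, and their printed windows were identical at 93 of 104 bases (89.4%). By these letters and this spacing, the promoters without the module belong to the gene that fell most, H2-T22, and to H2-T23. That of H2-M3, among the genes that fell least, has it. Other start sites of these genes were not searched, and a link between the module and the size of a fall was not tested. A match is a description of letters, not of a bound site.

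**Figure D2:**
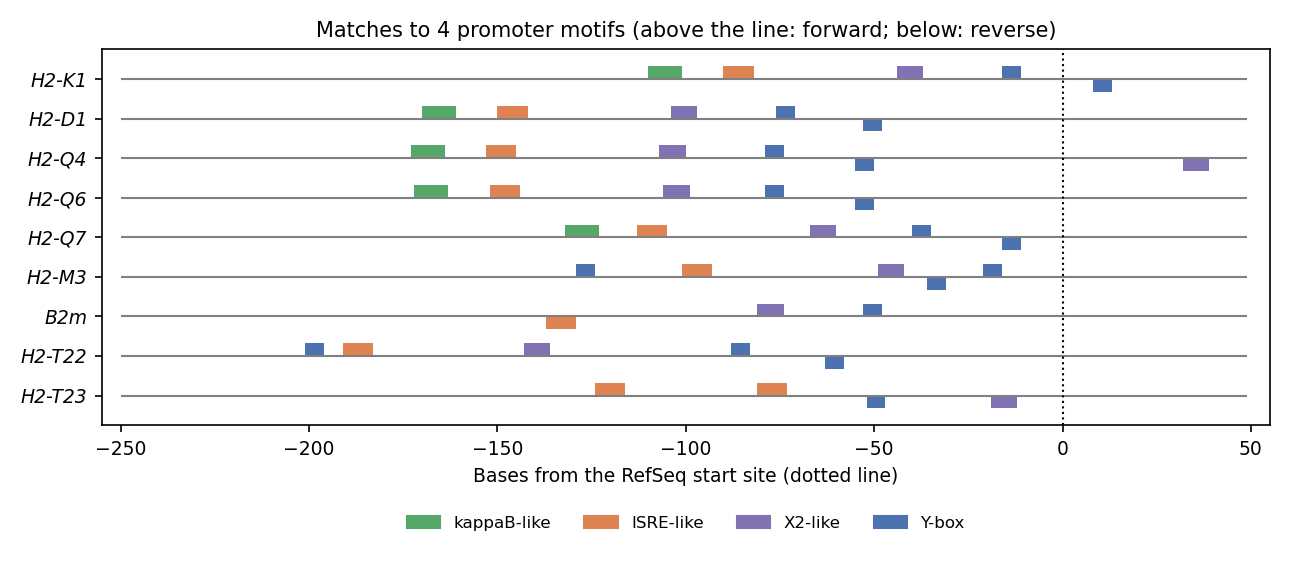
Positions of the 4 motifs in the 9 RefSeq promoters, in bases from the start site (dotted line), with forward matches above each line and reverse matches below it. An X2-like block followed on the same strand by a Y-box, within the spacing given in the text, recurs in 7 promoters. A kappaB-like block lies upstream of that pair in 5 of them. H2-T22 and H2-T23 at the bottom also have an X2-like block followed by a Y-box, on the reverse strand in H2-T23. In both the Y-box lies further on than that spacing, which brackets the distances found in the 7. Neither has a kappaB-like block.

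Among the classical heavy chains, H2-K1 (ENSMUSG00000061232) had 1816, 2363 and 1566 CPM in ICI replicates 1, 2 and 3 and 2878, 2861 and 2844 CPM in isotype replicates 1, 2 and 3. The isotype libraries were almost level and the ICI libraries spread, but the groups did not overlap. Means were 1915 ± 407 CPM in ICI and 2861 ± 17.2 CPM in isotype, with a log2 fold change at -0.78 (SE 0.15, edgeR adjusted p = 0.00117). H2-D1 (ENSMUSG00000073411), the most abundant heavy chain, had 5762, 6392 and 5074 CPM in ICI and 6375, 6612 and 5997 CPM in isotype. ICI replicate 2 stood among the isotype libraries. The fitted log2 fold change of H2-D1 was -0.34 (SE 0.12, edgeR adjusted p = 0.0291). Means were 5743 ± 659 CPM in ICI and 6328 ± 310 CPM in isotype. This small decrease rests on the scaling: with library totals alone the log2 fold change was -0.14 (edgeR adjusted p = 0.259), and the call was also lost without ICI replicate 1, ICI replicate 3, isotype replicate 1 or isotype replicate 2 (edgeR adjusted p = 0.0529, 0.107, 0.0805 and 0.0872).

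The Q-region chains all fell. H2-Q7 (ENSMUSG00000060550) had 239, 403 and 222 CPM in the 3 ICI libraries and 547, 589 and 537 CPM in the 3 isotype libraries. Each isotype value was above each ICI value, and the log2 fold change was -1.15 (SE 0.24, edgeR adjusted p = 0.00424). Its Qa-2 partner H2-Q6 (ENSMUSG00000073409) had 221, 396 and 229 CPM in ICI and 396, 414 and 376 CPM in isotype. Here ICI replicate 2 reached the isotype level while the other ICI libraries were well below it. The log2 fold change of H2-Q6 was -0.69 (SE 0.24, edgeR adjusted p = 0.0357), and leaving out any library except ICI replicate 2 lost the call, with edgeR adjusted p from 0.0658 without isotype replicate 3 to 0.0954 without isotype replicate 2, through 0.0738, 0.0814 and 0.0948 without isotype replicate 1, ICI replicate 3 and ICI replicate 1. H2-Q6 and H2-Q7 share 95.4% of their aligned coding bases. Of the 100-base windows of H2-Q6 transcripts 8.36% also occur in H2-Q7, and of those of H2-Q7 3.42% occur in H2-Q6. Reads of such windows can be assigned to either gene. Summed before the test, H2-Q6 and H2-Q7 had 953 ± 45.8 CPM in isotype and 569.9 ± 199 CPM in ICI (fitted log2 fold change -0.94, SE 0.23, edgeR adjusted p = 0.00965). H2-Q4 (ENSMUSG00000035929), which encodes Qb-1, was the scarcest chain, with 19.7, 26.4 and 17.6 CPM in ICI and 36.9, 34.4 and 29.8 CPM in isotype. The groups did not overlap (log2 fold change -0.87, SE 0.17, edgeR adjusted p = 0.00132). Of the 100-base windows of H2-Q4 transcripts, 11.8% also occur in the antisense gene Gm11131, and without strand information reads of the pair cannot be told apart.

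H2-T22 (ENSMUSG00000056116) separated the groups most widely, with 48.7, 78.4 and 40.5 CPM in ICI and 214, 217 and 198 CPM in isotype. Even the highest ICI library was far below the lowest isotype library. The log2 fold change was -2.10 (SE 0.26, edgeR adjusted p = 0.000409), at percentile 2.46 of the log2 fold changes of all tested genes. H2-T22 is also the member whose reads are least its own: 31.5% of the 100-base windows of its transcripts occur in another gene, 24.01% in the antisense gene A930015D03Rik and 6.92% in H2-T10, its close relative. Those genes were far scarcer than H2-T22, A930015D03Rik at 2.05 CPM in ICI and 2.38 CPM in isotype and H2-T10 at 5.67 and 10.12 CPM. H2-T23 (ENSMUSG00000067212), the Qa-1 chain, had 512, 749 and 417 CPM in ICI and 1101, 1103 and 939.5 CPM in isotype. The groups were apart here too, and the log2 fold change was -1.11 (SE 0.22, edgeR adjusted p = 0.00337). H2-M3 (ENSMUSG00000016206) had 119.7, 144 and 93.8 CPM in ICI, on either side of the 136, 135 and 136 CPM in isotype. Its change of -0.38 on the log2 scale (SE 0.15, edgeR adjusted p = 0.0459) was, of the 10, the call nearest the threshold. It was lost on library totals (-0.19, edgeR adjusted p = 0.251) and, leaving out single libraries, without ICI replicate 1, ICI replicate 3, isotype replicate 1, isotype replicate 2 or isotype replicate 3 (edgeR adjusted p = 0.0956, 0.0997, 0.0959, 0.102 and 0.0754).

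B2m (ENSMUSG00000060802), the light chain with which these heavy chains pair, had 2519.7, 3868 and 2577 CPM in ICI and 5454, 4350.3 and 5388 CPM in isotype. The groups did not overlap, although ICI replicate 2 was high and isotype replicate 2 low within its group. The mean was 2988 ± 762 CPM in ICI and 5064 ± 619 CPM in isotype. After TMM scaling the fitted fall was 1.95-fold (log2 fold change -0.96, SE 0.18, edgeR adjusted p = 0.0015). On library totals the log2 fold change was -0.76 (edgeR adjusted p = 0.00538). Nlrc5 (ENSMUSG00000074151), which acts in the nucleus on class I promoters, had 136, 200.4 and 93.7 CPM in ICI and 248, 266 and 232 CPM in isotype. Its ICI libraries were widely spread and stayed below every isotype library. The log2 fold change was -0.99 (SE 0.28, edgeR adjusted p = 0.022), and the call was lost without ICI replicate 1, isotype replicate 1 or isotype replicate 2 (edgeR adjusted p = 0.07, 0.0504 and 0.0698).

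The ICI libraries were ordered alike for most of the genes. On library totals, ICI replicate 2 was the highest ICI library for 10 of the 10, and ICI replicate 3 the lowest for 8, with ICI replicate 1 lowest for the other 2 (H2-Q6 and B2m). Irf1, an interferon-induced transcription factor, was likewise highest in replicate 2 and lowest in replicate 3 of ICI, with 982, 1246 and 786 CPM in ICI and 1259.6, 1317 and 1129 CPM in isotype. Among the isotype libraries replicate 3 was the lowest for 8 of the 10, and the SD over the isotype libraries was below that over the ICI libraries for all 10. After TMM scaling, ICI replicate 3 was the lowest of its group for 10 genes and isotype replicate 3 for 9. Replicate 3 was in each group the library with more Xist than Y-linked counts, and whether that bears on the order was not tested.

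Divided by exon length, so that genes can be compared, the isotype means fell in the order B2m (5889 CPM per kb), H2-D1 (2454), H2-K1 (974), H2-T23 (363), H2-Q6 (190), H2-Q7 (131), H2-M3 (94.4), H2-T22 (61.4), Nlrc5 (29.3) and H2-Q4 (12.98). No neighbours in that order overlapped over the 3 isotype libraries. In ICI the order was B2m (3475 CPM per kb), H2-D1 (2227), H2-K1 (652), H2-T23 (194), H2-Q6 (135), H2-M3 (82.9), H2-Q7 (67.5), Nlrc5 (16.9), H2-T22 (16.4) and H2-Q4 (8.18), and 3 neighbouring pairs overlapped there: H2-T23 with H2-Q6, H2-M3 with H2-Q7, and Nlrc5 with H2-T22. The mean of H2-M3 was thus above that of H2-Q7 in ICI, where their libraries overlapped, and below it in isotype, where they did not. Of the summed level per kb of the 8 heavy chains, H2-D1 made up 66.1 ± 3.08% in ICI and 57.3 ± 0.536% in isotype, the share of H2-K1 was 19.2 ± 0.999% against 22.8 ± 0.844%, and that of H2-T22 0.474 ± 0.0924% against 1.43 ± 0.0159%. H2-D1 thus made up more of the heavy chain RNA in ICI. The 8 heavy chains together took 0.898 ± 0.146% of the counts of an ICI library and 1.16 ± 0.0465% of those of an isotype library. Summed into 1 value, they had a fitted log2 fold change after TMM scaling of -0.56 (SE 0.14, 1.47-fold lower, edgeR adjusted p = 0.00496). On library totals it was -0.36 (edgeR adjusted p = 0.022).

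Ratios between genes of the same library do not depend on the scaling between libraries, and 14 were compared by exact permutation (two-sided), whose smallest possible p with 3 against 3 libraries is 0.1, so none could pass a threshold of 0.05. The groups did not overlap for 7 of the 14 (exact permutation p = 0.1 each, 0.2 after Benjamini-Hochberg adjustment over the 14). Relative to B2m, H2-D1 was higher in ICI by 0.64 on the log2 scale (1.56-fold) and H2-M3 by 0.57 (1.49-fold), while H2-T22 was lower, with a log2 difference of -1.18 (2.27-fold). For those 3 heavy chains every ICI library lay outside the range of the isotype libraries. H2-K1 to H2-D1 was 1.37-fold lower in ICI, H2-Q7 to H2-Q6 was 1.38-fold lower and H2-T22 to H2-T23 was 2.03-fold lower. B2m to Ptprc, the gene of the sorting antigen, was 2.21-fold lower. The ratios of H2-K1, H2-Q4, H2-Q6, H2-Q7, H2-T23 and Nlrc5 to B2m overlapped between the groups, with log2 differences from -0.23 for H2-Q7 to 0.24 for H2-Q6 (exact permutation p = 0.3 to 0.9). Summed heavy chains to summed class II chains (H2-Aa, H2-Ab1 and H2-Eb1) also overlapped, with a log2 difference of -0.25 (exact permutation p = 0.3). An overlap at this number of libraries does not show that the genes moved alike.

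**Figure D3:**
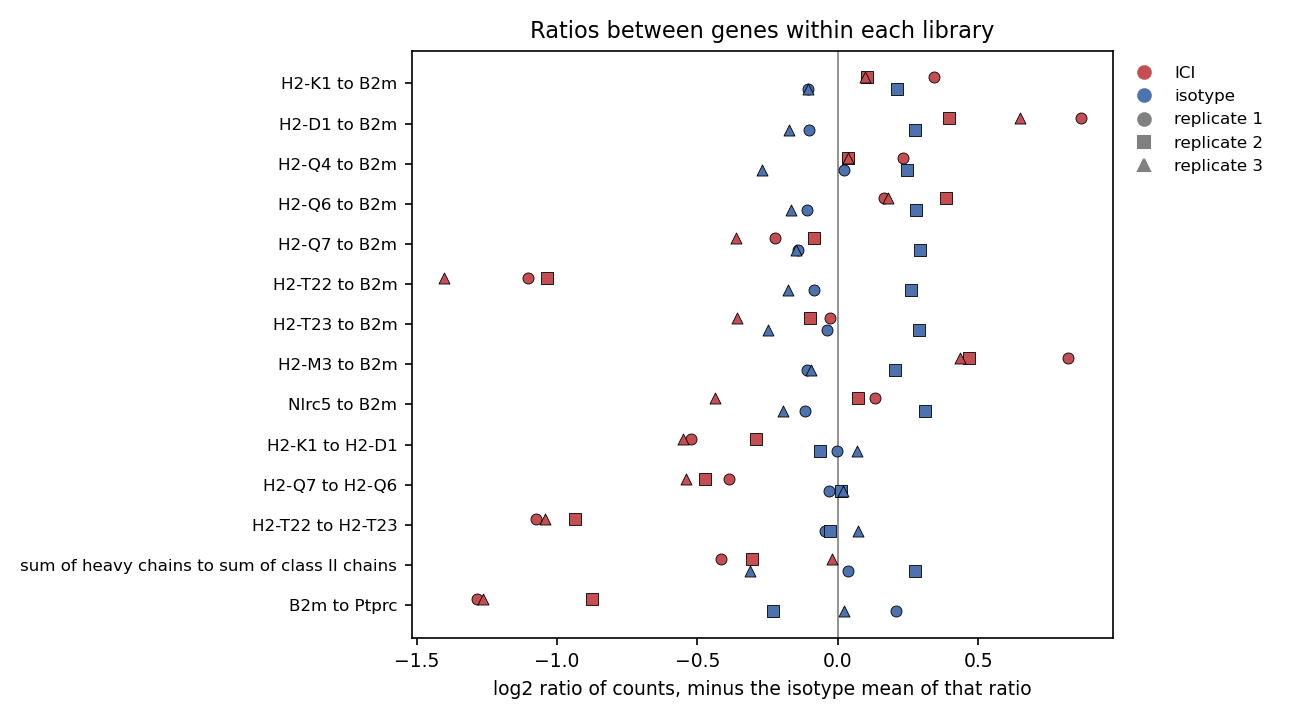
Log2 ratio of the counts of 2 genes, or of 2 sums of genes, in each library, minus the isotype mean of that ratio, so that isotype libraries (blue) centre on 0. ICI libraries (red) lie wholly to the right of isotype for H2-D1 and H2-M3 to B2m and wholly to the left for 5 ratios, with H2-T22 to B2m at a mean difference of -1.18.

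Genes that feed peptides to class I molecules were all lower in ICI. The 8 genes of peptide transport and loading were all called lower, where 33.9% of tested genes were, with a median log2 fold change of -1.11: among them Tap2, a chain of the peptide transporter, was at -1.60 (SE 0.15), Tapbp, which encodes tapasin, the bridge to the transporter, at -1.20 (SE 0.14), Pdia3, a thiol oxidoreductase of the loading complex, at -0.91 (SE 0.10) and Calr, which encodes the chaperone calreticulin, at -0.78 (SE 0.10; edgeR adjusted p = 1.98e-05 to 7.9e-05). The 5 immunoproteasome genes, whose products cut proteins into peptides for class I, were also all called lower, with a median of -1.91. Psmb8, a catalytic subunit, had 322, 425 and 244 CPM in ICI and 1275, 1186 and 1119 CPM in isotype, and Psme2, a subunit of the PA28 activator, fell by 2.16 on the log2 scale (SE 0.26, edgeR adjusted p = 0.000339). The median of the 8 heavy chains was -0.82. Of 6 class II genes 2 were called lower, close to the 33.9% of all tested genes: H2-DMb1 at -1.10 (edgeR adjusted p = 0.000655) and H2-DMa at -0.82 (edgeR adjusted p = 0.00758), which encode the class II peptide exchanger. The other 4 were not called, with H2-Ab1 at -0.43, H2-Aa at -0.18, H2-Eb1 at -0.16 and the invariant chain Cd74 at -0.07.

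Genes for the partners of NLRC5 at the promoter, listed together with the other transactivator gene Ciita, were called at rates no higher than the table as a whole. Of 9 genes of the SXY module 1 was called higher, 3 lower and 5 neither, where 35.0% of all tested genes were called higher and 33.9% lower; their median log2 fold change was -0.03. Creb1 was higher at 0.91 (edgeR adjusted p = 2.76e-05), and Nfyc (-0.38, edgeR adjusted p = 0.00198), Atf1 (-0.35, edgeR adjusted p = 0.0134) and Ciita, the class II transactivator (-0.68, edgeR adjusted p = 0.035), were lower. Rfx5, the DNA-binding RFX subunit, was at 18.5 ± 0.238 CPM in ICI and 13.8 ± 1.9 CPM in isotype and was not called (log2 fold change 0.22, edgeR adjusted p = 0.131). Of 14 genes of interferon signalling and class I induction, 4 were called higher, 6 lower and 4 not called, beside the same background of 35.0% and 33.9%. The 14 include the NF-kB subunit genes Rela, called higher (0.30, edgeR adjusted p = 0.00584), and Nfkb1, not called (edgeR adjusted p = 0.121). Irf1, whose product binds the interferon response element of class I promoters, was 1005 ± 231 CPM in ICI and 1235 ± 96.5 CPM in isotype (log2 fold change -0.50, edgeR adjusted p = 0.0292). Receptor genes parted: Ifngr1 was higher at 0.81 (edgeR adjusted p = 8.74e-05) and Ifngr2 lower at -0.67 (edgeR adjusted p = 3.64e-05), while Irf9 was higher at 0.86 (edgeR adjusted p = 7.54e-06) and the kinase Tyk2 lower at -0.76 (edgeR adjusted p = 4.67e-05).

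**Figure D4:**
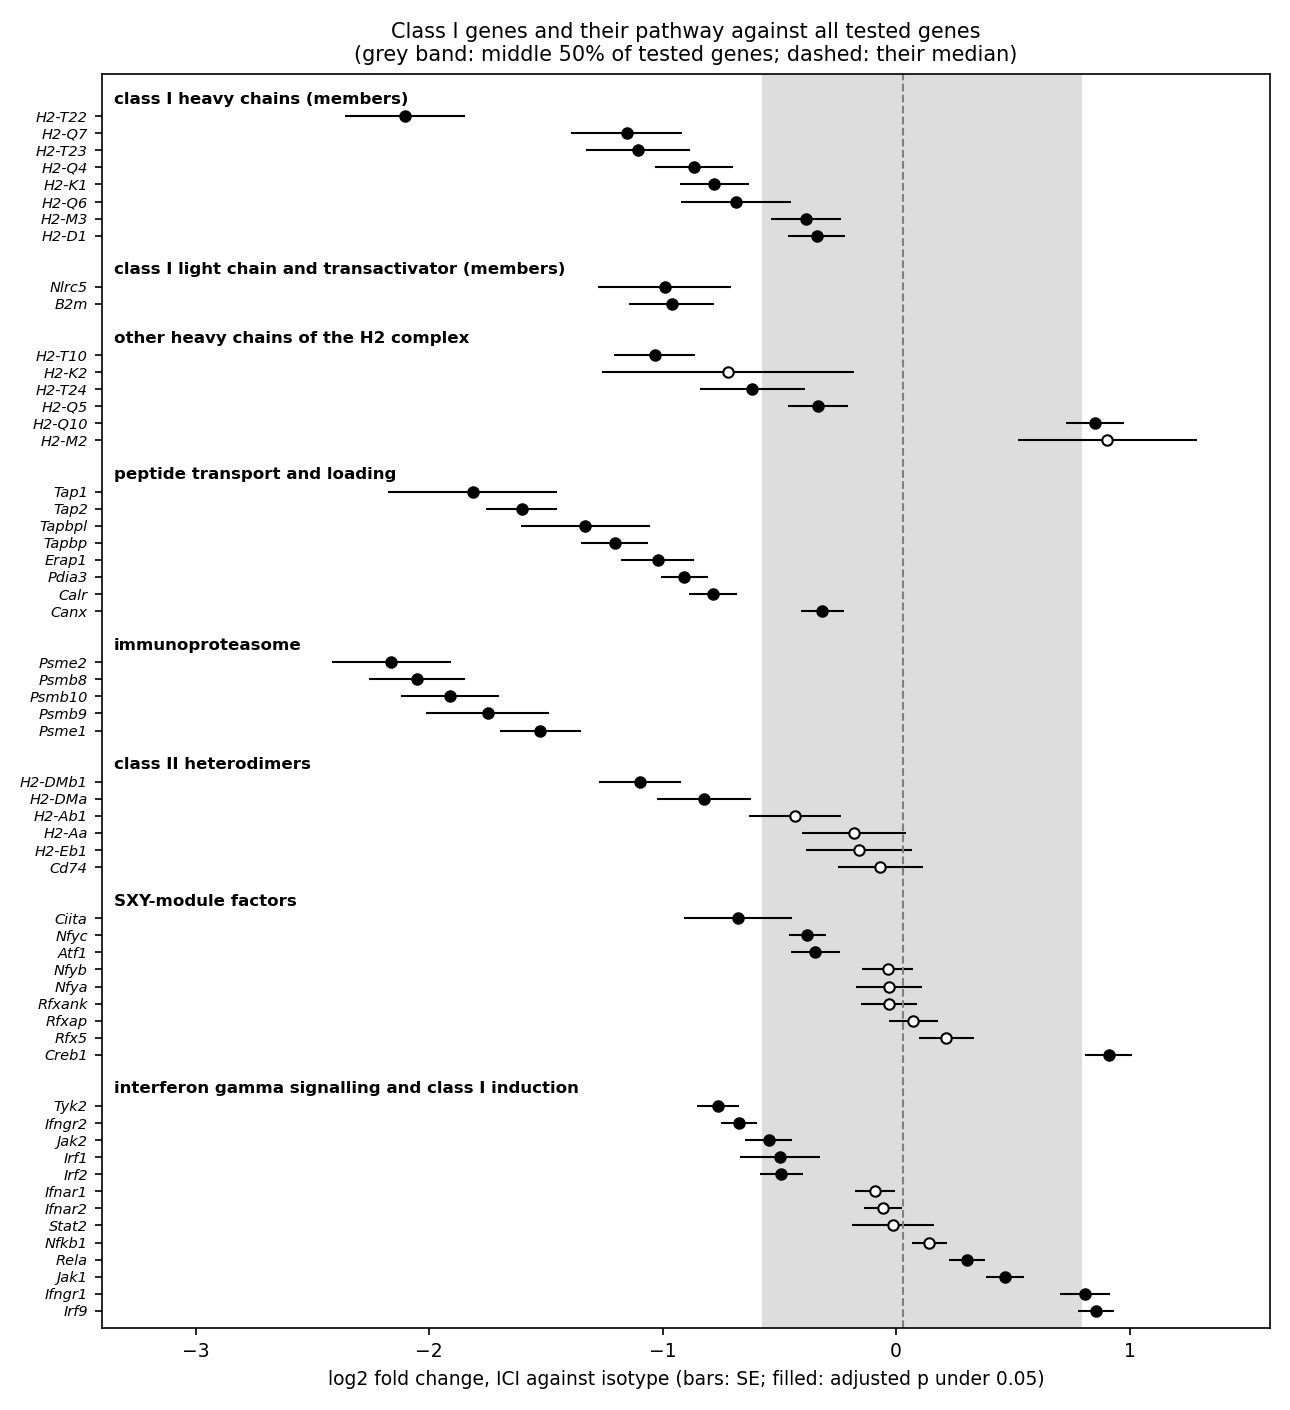
Log2 fold change with its SE for the 10 class I genes and the reported genes of 6 further pathway lists, filled where the edgeR adjusted p is under 0.05; the grey band holds the middle 50% of all tested genes (-0.57 to 0.79). Each of the 10 class I genes and every loading and immunoproteasome gene is filled and left of 0. Genes of the SXY-module list and of the interferon and class I induction list spread over both sides.

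Other heavy chains of the H2 complex were called in both directions. Of 30 listed, 21 were found in the table, 11 of these had 0 counts in every library, and 6 were tested, of which 3 were called lower, 1 higher and 2 not called (33.9% and 35.0% of all tested genes were called lower and higher). H2-Q10, which encodes a secreted chain, was the only one called higher, at 18.4 ± 1.35 CPM in ICI and 8.85 ± 0.592 CPM in isotype (log2 fold change 0.85, edgeR adjusted p = 0.000175); 5.56% of the windows of H2-Q7 also occur in it, and H2-Q7 moved the other way. H2-T10 (-1.03, edgeR adjusted p = 0.000466), H2-Q5 (-0.33, edgeR adjusted p = 0.0405) and H2-T24 (-0.62, edgeR adjusted p = 0.0435) were lower. H2-M2 was at 2.41 ± 0.954 CPM in ICI and 1.095 ± 0.493 CPM in isotype and was not called (log2 fold change 0.90, SE 0.38, edgeR adjusted p = 0.0573), although its ICI libraries were all above its isotype libraries. Class I-like genes outside the complex split, with 3 of 9 called higher and 5 lower, beside the same 35.0% and 33.9%. Mill2, a class I-like gene, was higher at a log2 fold change of 6.61 (edgeR adjusted p = 1.63e-08) and Hfe, an iron regulator, at 1.42 (edgeR adjusted p = 5.64e-05), whereas Procr, the endothelial protein C receptor, was lower at -3.87 (edgeR adjusted p = 5.7e-07) and Cd1d1, which presents lipids, at -2.15 (edgeR adjusted p = 5.21e-05). Mill2 was at 0.174 ± 0.0584 CPM in isotype, so its fold rests on few counts there. Of 14 tested genes from a list of class I recognition receptors and relatives of such receptors, 7 were called higher and 4 lower, beside 35.0% and 33.9% of all tested genes. Whether each of their products binds a class I chain was not examined here. Lilra5 was higher at 3.90 (edgeR adjusted p = 1.45e-08) and the inhibitory receptor gene Lilrb4a at 0.99 (edgeR adjusted p = 6.45e-05), and Klrk1, which encodes NKG2D, was lower at -2.57 (edgeR adjusted p = 1.22e-06), as was Pira2, a paired immunoglobulin-like receptor gene, at -1.43 (edgeR adjusted p = 2.31e-06).

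The genes with the profile most like a class I gene were sought among 8437 tested genes whose mean reached 10 CPM, by the root mean square difference of log2 values over the 6 libraries after each gene was centred on its own mean. For H2-K1 these were Casp1 (0.0203), Xaf1 (0.0361) and Sp110 (0.0363). For Nlrc5 they were Rsad2 (0.0581), Tnfsf10 (0.0623) and Phf11b (0.0686). For B2m they were Cep55 (0.0736), Ube2c (0.0829) and Tubb5 (0.107), none of which is among the genes closest to H2-K1 or Nlrc5. Casp1 was at 98.8 ± 20.8 CPM in ICI and 150.5 ± 0.635 CPM in isotype, with the even isotype libraries and spread ICI libraries of H2-K1. With 6 libraries in 2 groups, any gene with a similar fold change comes close, and likeness in this measure is a description.

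**Figure D5:**
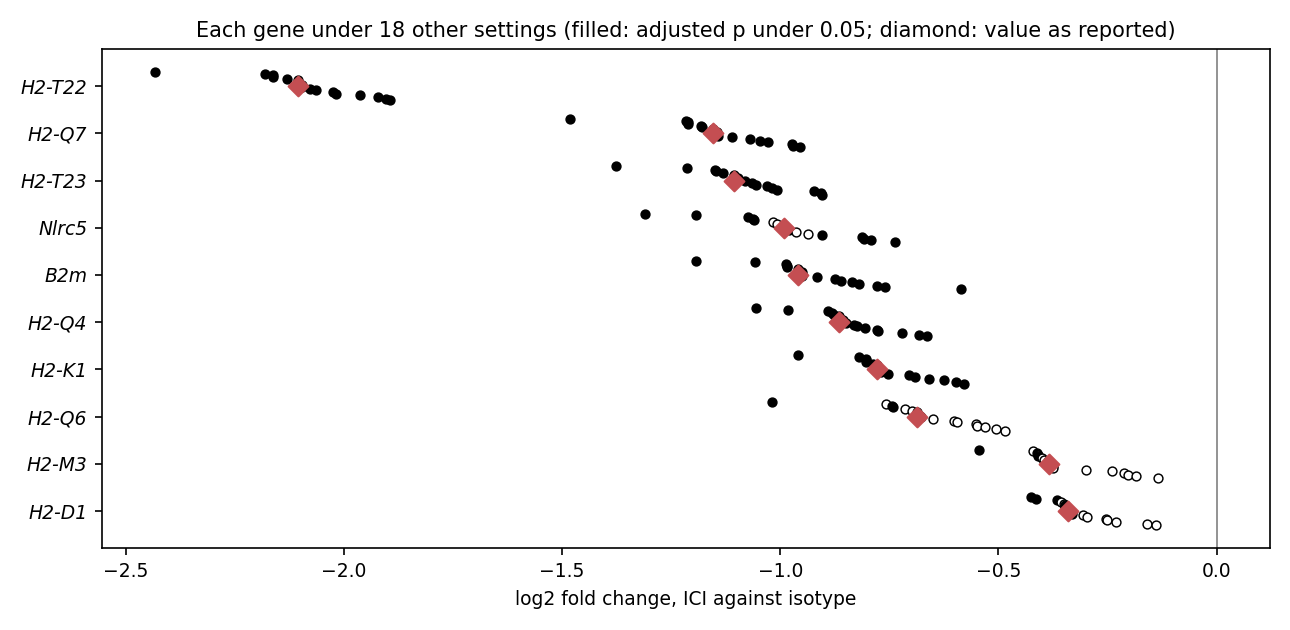
Log2 fold change of each class I gene under 18 other settings (filled circles where the adjusted p is under 0.05) with the value as reported (diamond). Every value is below 0; H2-T22, H2-Q7, H2-T23, B2m and H2-Q4 are filled throughout, while H2-Q6, H2-M3 and H2-D1 are open under 12, 13 and 10 of the 18.

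Under 18 other settings of scaling, filter, tool and libraries, the log2 fold change of each of the 10 genes stayed negative. H2-T22, H2-T23, H2-Q7, H2-Q4 and B2m were called lower under all 18, H2-K1 under 17 and Nlrc5 under 13. H2-T22 ranged from -2.43 to -1.89, B2m from -1.19 to -0.59 and H2-K1 from -0.96 to -0.58. H2-D1 was called under 8, H2-Q6 under 6 and H2-M3 under 5.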

How the data were processed

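The authors deposited whole-number counts per Ensembl gene for 6 libraries, without normalization. Per the submitters' processing notes STAR 2.7.10a, Salmon 1.10.1 and the build GRCm39 were used, without their roles, so the counts may be rounded estimates; the sources used here do not give the annotation. Per the labels' protocols the libraries were non-directional SMART-seq V4 libraries sequenced as read pairs. Symbols were matched for 52029 of 57010 identifiers.

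Genes were tested in edgeR 4.0.16 by its quasi-likelihood F test (robust fit, TMM factors, filterByExpr with a minimum count of 10), with Benjamini-Hochberg adjustment over 14575 genes holding 99.9% of the counts. The SE was taken from the fold change and F. Replicates are labelled biological; whether they are separate animals is not stated, so p-values measure the spread between these libraries. Exon lengths and shared windows came from GENCODE M21 (GRCm38). The test was checked on simulated data in which far fewer genes changed, evenly in both directions and with the same spread for every gene. That check does not cover differences as wide as those in these libraries. The 10 genes and all gene lists were chosen with earlier results of these data known. Named genes were all 10, up to 4 per list with the smallest p, Irf1, Rfx5, Ciita, Ptprc and Thy1, and the 3 most alike to H2-K1, B2m and Nlrc5; A930015D03Rik, Gm11131 and the other list members beyond these were named after their values were seen. Some genes that this rule takes are not reported here. Alternatives were DESeq2 1.42.0, limma-voom (limma 3.58.1), RLE and upper-quartile factors, library totals, no filter, a strict filter (50 counts in 3 libraries), a 1.5-fold test, a replicate block, each library left out, replicates 1 and 2 alone and, added after seeing the data, removal of a length trend (lowess span 0.3) and the legacy edgeR fit.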

Additional observations from a re-analysis of the deposited data

How the results depend on the processing

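In edgeR's test against a 1.5-fold change, 5520 genes were called, 3110 higher and 2410 lower; 5 of the 10 class I genes were called, and the summed heavy chains (-0.56) were not (edgeR adjusted p = 0.558). Leaving out 1 library at a time left 6 to 10 of the 10 called lower: 6 without ICI replicate 1, isotype replicate 1 or isotype replicate 2, and 10 without ICI replicate 2. Over all tested genes, 4648, 4500 and 4675 were called lower in the fits with 6, in that order. Without ICI replicate 2, 4770 genes were called lower. Upper-quartile factors and library totals moved the median over all genes to 0.21 and 0.23 (log2) and the higher and lower calls to 6155 and 3849, and to 6255 and 3724; 7 class I genes were called lower under each (relative to those medians all 10 still lay below 0). The direction of every class I gene was the same under these and all other alternatives. With the replicate block, 10 class I genes and 9991 genes were called. Same-numbered libraries correlated at 0.0675, 0.125 and 0.177 in their deviations from the group means, against -0.197 to 0.119 for the other pairs. Each same-numbered value was the highest for its ICI library, but isotype replicate 1 correlated better with ICI replicate 2 (0.119) than with its own number. Replicate 3 of each group was also the library with more Xist than Y-linked counts. The labels do not say that the numbers pair the libraries, so the main test left them unpaired. These values do not settle whether they pair. No class I gene was called higher under any alternative. Depth did not limit these genes, each with at least 17.6 CPM in every library, but 3 libraries per group limit the precision, and reads shared between H2-Q6 and H2-Q7, H2-T22 and its antisense gene, and H2-Q4 and Gm11131 cannot be assigned with certainty.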
